A study of Mus musculus with 2 samples.

Results

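The Rab genes are the 59 protein-coding mouse genes whose symbol is Rab, a number and at most 1 letter, of 21887 protein-coding genes in the RefSeq table of GRCm38 (mm10). The rule used the symbol alone and no measured value. Open chromatin was profiled by ATAC-seq, in which a transposase inserts adapters into accessible DNA, in CD48-CD150+LSK hematopoietic stem cells from the bone marrow of wild-type C57BL/6J mice. The H1C group, 1 library, was made from cells transduced with MSCV-H1C retrovirus to overexpress H1C, the linker histone now named H1f2. The control group, 1 library, was made from cells transduced with pMSCV. Both groups were thus retrovirally transduced wild-type cells, and each library came from about 1000 cells. With 1 library a group no difference has a replicate check, and no test between the groups was made.

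Rab proteins are small GTPases that sit on the surface of membrane compartments and mark them. In the GTP-bound form a Rab recruits effectors (tethers, motors, coat and fusion factors), and exchange factors (GEFs) and GTPase-activating proteins (GAPs) switch it on and off. In blood cells Rabs are known for receptor recycling, granule release, phagosome maturation and autophagy. Many are used by every cell, while others, such as Rab3a in neurons, Rab25 in epithelia and Rab38 in pigment cells, are restricted.

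The H1C list held 13156 accessible regions and the control list 32005. The genome-wide background, the lowest local background of a list, was 4.40 in H1C and 3.99 in control, a ratio of 1.10, and the files give no read totals. At H1f2 itself the 2 H1C regions had summit pileups of 33 and 43 and the single control region one of 72, which does not measure its expression. Of 12 stem cell markers, 1 (Mllt3) had a region at a gene end in both lists, 5 (Kit, Meis1, Hlf, Slamf1 and Tal1) in control only and 6, Mecom and Procr among them, in neither. Of the markers of other cells, a control gene-end region was listed for 7 of 10 lymphoid, 6 of 10 myeloid, 3 of 9 erythroid and megakaryocyte, 2 of 5 mast cell and basophil, 2 of 6 endothelial and stromal and 2 of 6 non-hematopoietic genes. H1C also had one in 2 of those 7 lymphoid, 2 of the 6 myeloid, 2 of the 3 erythroid and megakaryocyte, 1 of the 2 mast cell, 0 of the 2 endothelial and 0 of the 2 non-hematopoietic genes. Over all protein-coding genes 46.9% had a control gene-end region, and 71.0% of those had one in H1C. Their part in the Rab values was not tested.

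To show the DNA behind the classes described below, the 150 bases immediately before the annotated gene are given for members of each class, from the RefSeq promoter table of GRCm38.p6. They are written 5′ to 3′ on the strand of the gene. Capitals mark matches to the motifs searched, on either strand: the GC box GGGCGG, the CCAAT box, the TATA box TATAAA, the E-box CACGTG, the ETS motif CCGGAAG, the CRE TGACGTCA and the NRF1 and BANP motifs. Rab8a (chr8:72161050-72161199, plus strand) and Rab1b (chr19:5106997-5107146, minus strand) had a region in both lists, and all 150 bases lay in it.
Rab8a: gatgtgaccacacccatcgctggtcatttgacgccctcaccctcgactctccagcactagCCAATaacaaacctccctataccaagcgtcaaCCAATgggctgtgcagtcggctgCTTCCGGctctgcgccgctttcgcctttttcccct
Rab1b: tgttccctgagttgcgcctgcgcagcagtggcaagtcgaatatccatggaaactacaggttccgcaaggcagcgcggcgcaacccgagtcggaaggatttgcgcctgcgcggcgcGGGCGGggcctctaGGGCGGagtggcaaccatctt
Rab27a (chr9:73044660-73044809, plus strand) and Rab31 (chr17:65772753-65772902, minus strand) had a region in control only, and 80 and 72 of the 150 bases lay in one.
Rab27a: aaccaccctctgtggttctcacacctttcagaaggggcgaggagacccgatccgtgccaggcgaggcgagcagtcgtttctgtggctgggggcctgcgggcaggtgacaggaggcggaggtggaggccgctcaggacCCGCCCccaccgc
Rab31: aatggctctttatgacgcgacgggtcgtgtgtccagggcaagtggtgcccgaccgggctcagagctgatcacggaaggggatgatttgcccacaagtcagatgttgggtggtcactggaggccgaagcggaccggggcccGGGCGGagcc
Rab3a (chr8:70754553-70754702, plus strand) and Rab3b (chr4:108878920-108879069, plus strand) had no region at either gene end in either list.
Rab3a: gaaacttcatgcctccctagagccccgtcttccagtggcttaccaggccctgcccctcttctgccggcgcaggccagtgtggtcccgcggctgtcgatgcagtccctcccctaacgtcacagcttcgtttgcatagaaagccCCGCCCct
Rab3b: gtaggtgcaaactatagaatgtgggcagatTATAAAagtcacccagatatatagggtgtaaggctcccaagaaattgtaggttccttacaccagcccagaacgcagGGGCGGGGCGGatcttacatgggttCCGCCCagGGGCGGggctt

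A gene-end region was one within 1000 bp of either end of the gene. By that rule 35 Rab genes had a gene-end region in both lists, 7 in control only, 0 in H1C only and 17 in neither. Thus 42 of 59 Rab genes (71.2%) had one in control, against 46.9% of all protein-coding genes. Among them, 83.3% (35 genes, exact 95% interval 68.6 to 93.0) also had one in H1C, against 71.0% of all 10264 genes with a control gene-end region. A gene-end region in H1C only was listed for 0.288% of all genes, and one in control only for 29.0% of all genes with a control region, against 7 of the 42 Rab genes. By regions, 37 of the 46 control gene-end regions of Rab genes were overlapped in H1C, and all 35 H1C gene-end regions overlapped one of control. Shares by region were not computed over all genes, so these counts cannot be called particular to Rab genes. An end can be a neighbour's: in 10 of the 35 genes the strongest region also lay at the end of another protein-coding gene. They were Rab1b, Rab2b, Rab4b, Rab5b, Rab6a, Rab13, Rab24, Rab26, Rab33a and Rab37. Without all genes with such regions 25 of 32 Rab genes (78.1%) were kept, against 66.7% of all genes so chosen.

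The strength of the control region accompanied this share. The Rab genes' strongest control gene-end regions had a median −log10 p (the peak caller's Poisson value for the summit) of 39.2, against 27.1 in other genes, and 13 of the 42 lay in the top of 10 equal-count bins. By that value, all 28 Rab genes from 27.15 upward were kept, and so were 96.7% of other genes there. Below it 7 of 14 Rab genes were kept, against 45.3% of other genes. When the other genes were weighted to the Rab genes' bins their kept share was 83.4%, inside the interval of the Rab share. The excess over the unweighted 71.0% was thus not seen against genes of like strength in control.

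**Figure D1:**
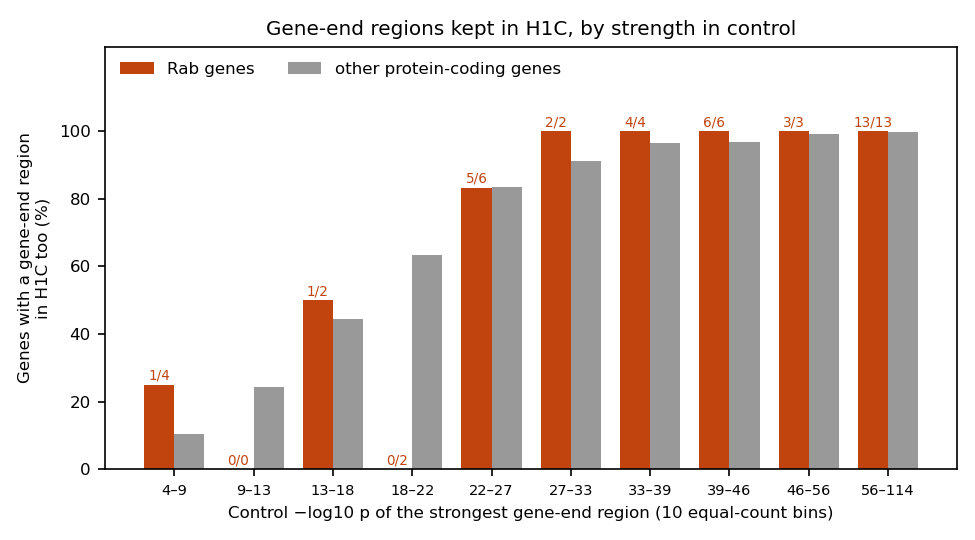
Share of genes with a gene-end region in H1C as well as in control (y axis, percent), by the control −log10 p of the strongest gene-end region in 10 equal-count bins (x axis). Orange-red bars are Rab genes, with kept and total numbers above, and grey bars other protein-coding genes; from the bin that starts at 27.15 upward every Rab gene was kept.

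The peak caller's fold and −log10 p allow the summit pileup, the number of fragments or reads stacked at the summit, to be recovered as a whole number. Intervals on ratios of pileups cover counting error only, and amplified fragments are not independent molecules. Overlap of separate intervals does not show that ratios are alike, and differences between genes were not tested. In the 36 Rab genes whose strongest control gene-end region was overlapped in H1C, pileups ran from 20 to 83 in H1C (median 46.5). Their fold over local background ran from 2.89 to 8.27 in H1C, and the fold is the authors' own value for each region. In the 35 genes with a region in both lists, control pileups ran from 31 to 130 (median 72) and control folds from 3.14 to 12.8. The −log10 q ran from 2.82 to 41.5 in H1C and from 5.70 to 84.0 in control.

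Divided by the ratio of genome backgrounds, the median log2 ratio of H1C to control pileup was -0.88 (quartiles -1.01 and -0.64), a ratio of 0.542. It was below 0 in 36 of 36 genes, as in 99.3% of all 7230 genes with a ratio. The interval lay wholly below 0 in 29 and included 0 in 7. Other genes had a median of -0.85 (quartiles -1.04 and -0.67), and -0.87 when weighted to the Rab genes' bins. The Rab median lay inside those quartiles. The size of these ratios depends on the scaling. With the median local background under shared summits as the scale, the median was -0.54 in Rab genes and -0.51 in other genes, 33 of 36 Rab genes lay below 0 (not Rab1b, Rab2a and Rab35) and 15 intervals lay wholly below it. With no scaling 35 of 36 did (not Rab35), with 25 intervals. A ratio exists only where H1C had a region, which leaves out the genes without one.

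**Figure D2:**
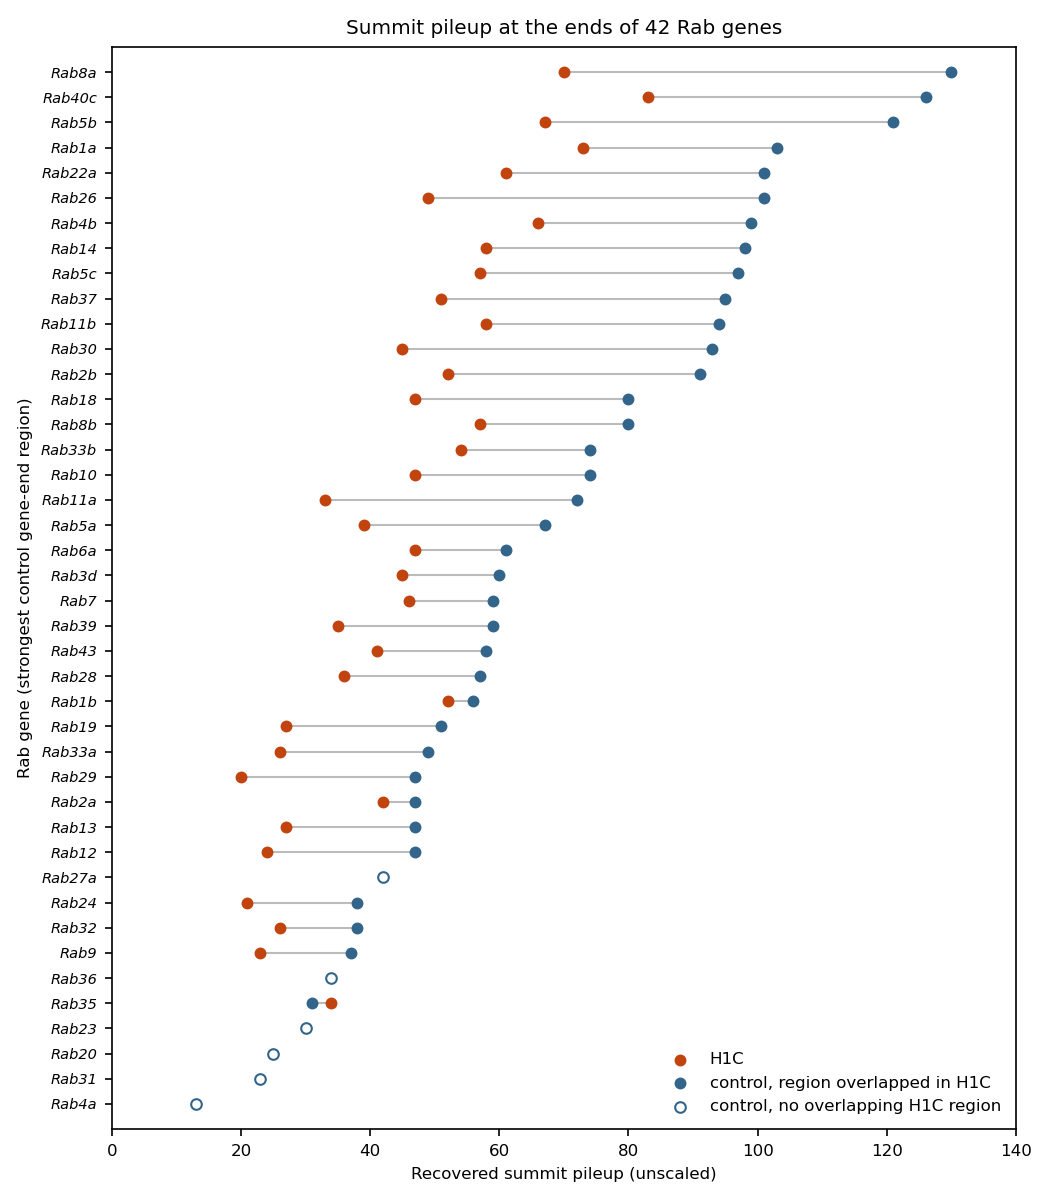
Summit pileup (x axis, unscaled) at the strongest control gene-end region of 42 Rab genes (rows), with H1C in orange-red and control in blue; open circles have no overlapping H1C region. The H1C point lies left of the control point in every pair but Rab35 (34 in H1C, 31 in control).

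Summits lay at nearly the same positions in both lists, and the H1C regions were mostly narrower. In the 36 pairs the H1C and control summits lay 2 to 217 bp apart (median 19.5), and 30 pairs were within 100 bp. The H1C region was the narrower in 33 pairs, with a median width of 466 bp, against 676 bp in control for the genes with a region in both. Summit distances and widths were not compared with those of other genes, so neither can be called particular to Rab genes. The summit lay 66 to 582 bp from the region's start in H1C and 149 to 712 bp in control, which moves with width. For 29 pairs near a RefSeq start, the median summit lay 90 bp before that start in H1C and 76 bp before it in control. Rab13, a Rab of epithelial junctions, had summits 2 bp apart, and Rab26, a Rab of secretory granules, had summits 217 bp apart.

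Over all protein-coding genes 33.3% had a gene-end region in both lists. Among early endosomal and recycling Rabs 9 of 15 did, which is 9 of the 11 with one in control, against 71.0% of all genes with one in control. Rab5 proteins govern early endosome fusion, and all 3 genes were kept. Rab5b had the highest control −log10 p of the family (89.6), with a pileup of 67 in H1C and 121 in control (log2 ratio -0.99, 95% interval -1.45 to -0.55); the region also touched the end of Pmel. Rab5c had 57 in H1C and 97 in control (-0.91), and Rab5a 39 in H1C and 67 in control (-0.92). The 3 ratios lay close together although control pileups differed. They also lay near the medians of other genes in their bins of control −log10 p (-0.91 and -0.93).

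Rab11a and Rab11b act in slow recycling to the cell surface. Rab11a had a pileup of 33 in H1C and 72 in control (log2 ratio -1.27, -1.91 to -0.65), and Rab11b 58 in H1C and 94 in control (-0.84, -1.34 to -0.35). Their intervals overlapped. Rab14 (58 in H1C, 98 in control), Rab22a (61 in H1C, 101 in control) and Rab4b (66 in H1C, 99 in control) were among the 10 strongest in control, with log2 ratios of -0.90, -0.87 and -0.73. Rab4b's second gene-end region, 995 bp from its far end and at the end of Egln2, was just inside the window; the H1C region over it, 1052 bp away, was just outside.

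Rab35, a Rab of endosomal recycling and the plasma membrane, had the highest ratio, and its sign turned with either other scaling. Its gene-end region had a pileup of 34 in H1C and 31 in control, a log2 ratio of -0.01 (-0.75 to 0.74). Its local background was high, 8.22 in H1C and 9.20 in control, so the fold was 3.80 in H1C and 3.14 in control. Another region, 5461 bp beyond the gene and at no protein-coding gene's end, had 52 in H1C and 94 in control (interval of the log2 ratio -1.51 to -0.49). The intervals of these regions overlapped, and the difference between the regions was not tested. At a control −log10 p of 8.43 Rab35 lay in the lowest bin, where 10.3% of other genes were kept.

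Rab4a, a Rab of fast recycling, and Rab31, a Rab of endosome to Golgi transport, each had their gene-end region in the control list alone. Rab4a's pileup was 13 (fold 2.79, −log10 q 1.78), the weakest of the family. Rab31's was 23 (fold 3.30), although another region 1851 bp inside the gene was kept with 24 in H1C and 26 in control. Rab15, Rab17, Rab21 and Rab25 had none at an annotated end. Rab21, an endosomal Rab of integrin traffic, nevertheless had a control region of pileup 39 whose summit lay 11 bp from its RefSeq start, because the annotated gene reaches 1389 bp further than that region; H1C had no region there. Rab15 had a control region of pileup 15 at 1 of its 4 listed starts and none there in H1C.

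Late endosomal, lysosomal and autophagic Rabs had a region in both lists in 6 of 10 genes, against 33.3% of all genes. They were kept at 6 of 7, against 71.0% of all genes with a control gene-end region. Rab7, which drives late endosome to lysosome traffic, had a pileup of 46 in H1C and 59 in control (log2 ratio -0.50, -1.09 to 0.08). Rab29, a Rab of the lysosome and trans-Golgi, had the lowest ratio of the family, with 20 in H1C and 47 in control (-1.37, -2.21 to -0.59). Rab12, which directs transferrin receptor to lysosomes, had 24 in H1C and 47 in control (-1.11, -1.89 to -0.37). Rab9 (23 in H1C, 37 in control), Rab24 (21 in H1C, 38 in control) and Rab32 (26 in H1C, 38 in control) were kept, and of these 3 the interval of Rab32 (-1.47 to 0.07) included 0. Rab7 and Rab29 thus stood near opposite ends of the order, but their intervals overlapped.

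Rab20, a Rab of phagosome maturation, had its gene-end region in the control list alone (pileup 25, fold 3.52), and it lay 458 bp beyond the 3′ end. Inside the gene, 14404 bp after the start, a region had 35 in H1C and 54 in control (log2 ratio -0.77, -1.42 to -0.13). Rab7b, Rab9b and Rab38 had no gene-end region, and Rab9b and Rab38 no region at all within 10 kb.

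Rabs of the endoplasmic reticulum and Golgi had a region in both lists in 11 of 15 genes, against 33.3% of all genes, and were kept at 11 of 12, against 71.0%. Rab1a and Rab1b, which act between these compartments, had pileups of 73 in H1C and 103 in control (log2 ratio -0.64, -1.09 to -0.19) and of 52 in H1C and 56 in control (-0.25, -0.82 to 0.32). Rab1b's region is shared with the end of Klc2. Rab2a had 42 in H1C and 47 in control (-0.30, -0.94 to 0.33), while its paralog Rab2b had 52 in H1C and 91 in control (-0.95, -1.47 to -0.44). Both pairs of intervals overlapped, and Rab1b and Rab2a lay above 0 when scaled by local background. At Rab2a a second gene-end region, 494 bp from the gene end with a pileup of 28, was in control only. Rab2b's region also lay at the end of Tox4.

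Rab30, a Golgi Rab, had the highest control fold of the family, 12.8, with 45 in H1C and 93 in control (log2 ratio -1.19, -1.74 to -0.66). Rab6a, of retrograde Golgi traffic, had 47 in H1C and 61 in control (-0.52, -1.10 to 0.05), in a region also at the end of Mrpl48. Rab18, a Rab of the endoplasmic reticulum and lipid droplets, had 47 in H1C and 80 in control (-0.91). Rab33b, Rab39 and Rab43 were kept with ratios of -0.60, -0.90 and -0.64. Rab33a was kept by the gene-end rule alone: its region, at the end of Aifm1, had its control summit at position -5741 relative to the RefSeq start.

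Rab19 was in control only by the window and not by overlap. Its control region, 583 bp from the gene, had a pileup of 51, and the H1C region inside it, 1169 bp away, had 27 (log2 ratio -1.06, -1.79 to -0.36). Rab6b, Rab34 and Rab39b had no gene-end region, and Rab39b none within 10 kb.

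Rabs of secretion and exocytosis had a region in both lists in 7 of 13 genes, against 33.3% of all genes. They were kept at 7 of 8, against 71.0% of all genes with a control gene-end region. Rab8a, which carries vesicles to the plasma membrane and the cilium, had the highest control pileup, with 70 in H1C and 130 in control (log2 ratio -1.04, -1.48 to -0.60). Its paralog Rab8b had 57 in H1C and 80 in control (-0.63, -1.15 to -0.12), an overlapping interval, and Rab10 had 47 in H1C and 74 in control (-0.80). Rab3d, a granule Rab, had 45 in H1C and 60 in control (-0.56, -1.15 to 0.02). The other Rab3 genes, which serve synaptic vesicle release, had no gene-end region, and Rab3a had none within 10 kb.

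Rab27a, which docks lysosome-related granules for release, had gene-end regions in control only, with pileups of 42 (fold 5.81) and 20 (fold 3.15). A region 25517 bp after its nearest listed start was kept, with 20 in H1C and 47 in control (log2 ratio -1.37, -2.21 to -0.59). Its paralog Rab27b had no region in either list. Rab26 (49 in H1C, 101 in control, -1.19) and Rab37 (51 in H1C, 95 in control, -1.04) were kept through regions at the ends of Traf7 and Slc9a3r1, and at Rab26 a second region of pileup 40, across its other end, was in control only.

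Of the remaining 6 genes 2 had a region in both lists, against 33.3% of all genes. These were 2 of 4 with one in control, against 71.0% of all genes with one in control. Rab40c, whose protein carries a SOCS box, had the highest H1C pileup, 83, against 126 in control (log2 ratio -0.74, -1.16 to -0.33), and Rab28, of the cilium and photoreceptors, had 36 in H1C and 57 in control (-0.80). Rab23, a negative regulator of Hedgehog signaling, had a region of pileup 30 (fold 5.94) in control only, and Rab36 one of pileup 34 (fold 6.01). In the bins of Rab23 and Rab36, 44.4% and 63.4% of other genes were kept. Rab40b and Rab42 had no gene-end region.

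By role the median log2 ratio was -0.90 in early endosomal and recycling Rabs, -0.91 in late endosomal ones, -0.77 in those of the endoplasmic reticulum and Golgi, -0.94 in those of secretion and -0.77 in the remaining genes. These medians rest on 9, 6, 12, 7 and 2 genes, and all lay within the quartiles of other genes. In the same order, the median control −log10 p of genes with a control gene-end region was 61.8, 23.6, 40.7, 50.1 and 27.3. Kept shares by role were not weighted to bins of that value, so the 71.0% is not a share of genes of like strength.

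**Figure D3:**
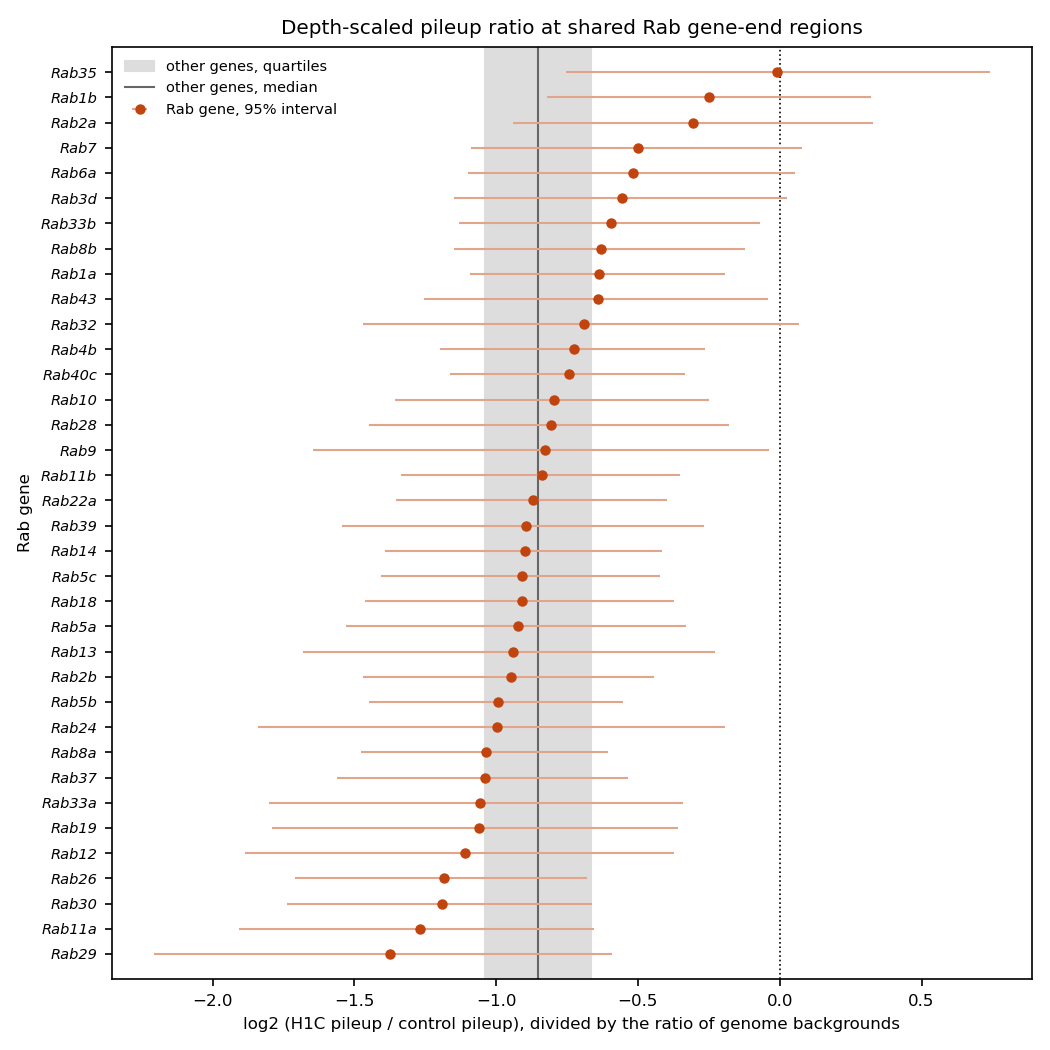
Log2 ratio of H1C to control pileup, divided by the ratio of genome backgrounds (x axis), at the strongest gene-end region of 36 Rab genes (rows) with exact 95% intervals for counting error. The grey band and line are the quartiles (-1.04 and -0.67) and median (-0.85) of other genes; every Rab interval reaches into the band.

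The control-only genes had weak regions. Among the 7, control pileups ran from 13 to 51 (median 30) and folds from 2.79 to 6.01, below the medians of 72 and 8.83 in the genes kept. The 51 was at Rab19, whose control region was overlapped by an H1C region outside the window. The next highest was 42, at Rab27a. Rab27a and Rab36, both in control only, and Rab9, Rab24 and Rab32, all kept, had control pileups between 34 and 42. Genes of like control pileup thus fell in both classes.

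Regions were also counted around RefSeq starts. The promoter table matched 48 of the 59 genes. Within 1000 bp of a listed start, 29 of 34 Rab genes with a control region also had one in H1C (85.3%), against 72.9% of all genes so measured. The 5 in control only were Rab15, Rab21, Rab23, Rab27a and Rab31. Rab15 and Rab21 had none by the gene-end rule, while Rab19 and Rab20 (control only by gene ends) and Rab33a (both) had none around a start. Rab2a, Rab4a, Rab7b, Rab18, Rab26, Rab27b, Rab30, Rab36, Rab37, Rab38 and Rab44 had no entry.

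Median promoter CpG counts followed the classes. In the 300 bases from 250 before to 50 after the most upstream listed start, the median CpG count was 25 in 30 Rab genes with a region in both lists, 18 in the 5 in control only and 13 in the 13 with none. Over all protein-coding genes with an entry the medians were 23, 17 and 4 in the same classes. The Rab genes with no gene-end region ranged from 5 to 42, and the highest were Rab6b (42), Rab15 (38) and Rab21 (26). Of these, the start of Rab21 lay within the control region of pileup 39 described above, outside the gene-end window. At least 15 CpGs were found in 6 of these 13 promoters, against 22.8% of all promoters without a gene-end region. These are descriptions of sequence, and their part in accessibility was not tested.

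**Figure D4:**
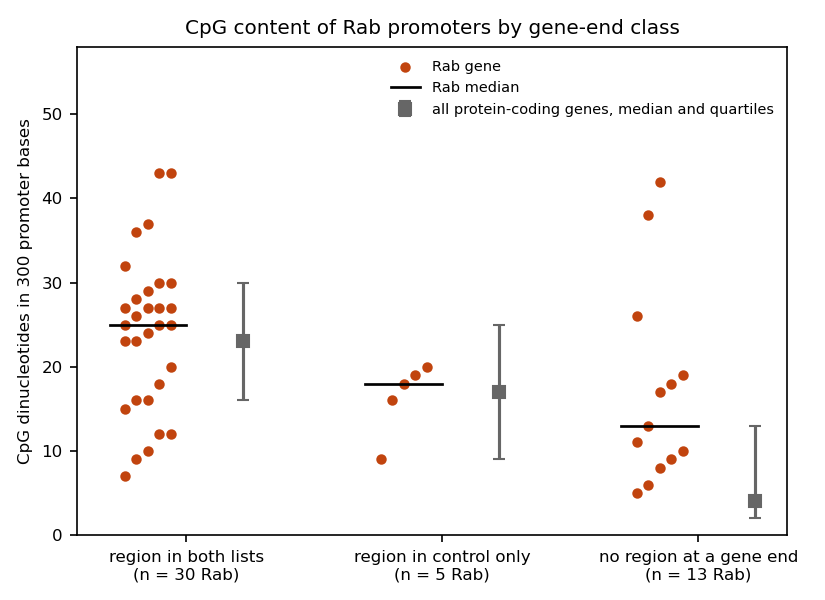
CpG dinucleotides in 300 promoter bases (y axis) for Rab genes with a gene-end region in both lists, in control only or in neither (x axis; orange-red points, black bars are medians). Grey squares and bars are the median and quartiles of all protein-coding genes; the Rab medians were 25, 18 and 13.

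The GC box was in 34 of 48 Rab promoters (70.8%), against 46.3% of all 17492. By class it was in 21 of 30 Rab genes with a region in both, 4 of 5 in control only and 9 of 13 with none. Over all genes of those classes the shares were 70.5%, 56.9% and 27.6%. The CCAAT box was in 23 of 48 (47.9%), against 39.2% of all, and in 17 of the 30 kept (56.7%), against 43.0%. Rab8a shows a pair of CCAAT boxes above and no GC box in its 150 bases, while Rab1b shows a pair of GC boxes. The TATA box was in 4 (Rab3b, Rab7, Rab39b and Rab42; 8.33%, against 13.3% of all). Of these, 3 were among the 13 without a gene-end region, against 19.5% of all genes of that class. The E-box was in 5 (10.4%, against 7.91% of all), the ETS motif in 5 (10.4%, against 11.9%), the CRE in 2 (4.17%, against 2.33%), the BANP motif in 1 (2.08%, against 0.726%) and the NRF1 motif in 0 (against 1.33%). A match describes these letters in this window, and no match says nothing of the factor. Rab3a, with 18 CpGs and both a GC box and a CCAAT box, had no region.

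Away from their own ends, Rab genes, like other genes, held weaker regions (median control pileup 26, against 27 in other genes) that were seldom kept. In gene bodies and 10 kb on either side, 93 further control regions were listed at 41 genes, and 25 (26.9%, 18.2 to 37.1) overlapped an H1C region, against 29.6% of such regions over all protein-coding genes. Other genes' regions weighted to the Rab regions' 5 bins of −log10 p were kept at 26.6%. The 18 at the end of another gene were kept at 55.6% (median control pileup 46.5) and the 75 away from all ends at 20.0% (median 23), against 61.0% and 21.0% in other genes. Among the 25 kept the median log2 ratio was -0.71, and 24 lay below 0 (21 when scaled by local background).

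Of the 10 strongest such regions, most lay at the ends of neighbouring genes. Next to Rab2b, at the end of Chd8, a region had a pileup of 48 in H1C and 100 in control (log2 ratio -1.20, -1.73 to -0.69). Next to Rab25, at the ends of Lamtor2 and Ubqln4, one had 40 in H1C and 85 in control (-1.23), and next to Rab13, at the end of Jtb, one had 28 in H1C and 67 in control (-1.40, the lowest of the 25). At the end of Wdr45b by Rab40b the interval included 0, with 50 in H1C and 58 in control (-0.36, -0.93 to 0.21). At the end of Aph1c by Rab8b pileups were 47 in H1C and 74 in control, and at that of Hsh2d by Rab8a 25 in H1C and 48 in control. The region at the end of Mettl26 by Rab40c (pileup 48) was the only one of the 10 strongest in control only.

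By gene, over gene bodies and 10 kb on either side, Rab37, a Rab of mast cell granule release, kept 3 of its 7 further control regions. The strongest, inside the gene and 8520 bp from its end, had 41 in H1C and 57 in control (log2 ratio -0.62, -1.23 to -0.01). Rab8b kept 3 of 6, Rab31 2 of 6 and Rab8a 3 of 4, against 29.6% of such regions over all protein-coding genes. Those kept by Rab8b and Rab8a include the regions at the ends of Aph1c and Hsh2d. Rab30 had 4 in control, with pileups of 19 to 23, and kept 0, and Rab44 had 5 and kept 0. The −log10 p of these ran from 5.85 to 11.0, in bins where 7.03%, 9.44% and 13.1% of other genes' regions were kept. Those kept by Rab8a ran from 19.2 to 28.0, in bins where 32.7% and 85.8% were kept. Those kept by Rab37, Rab8b and Rab31 ran from 6.88 to 50.4. By Rab19, a region 2397 bp from the gene had 27 in H1C and 20 in control, a log2 ratio of 0.29 (-0.60 to 1.20), the one of the 25 not below 0 by genome background.

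Of 32 further H1C regions, 5 overlapped no control region, against 16.5% over all protein-coding genes. They lay by Rab12, Rab37, Rab5c, Rab15 and Rab8a. The one by Rab12, 4868 bp beyond the gene, was the strongest, with a pileup of 29 (fold 5.55, −log10 q 11.4). The others had pileups of 27 in Rab37, 20 in Rab5c, 19 in Rab15 and 18 in Rab8a, with folds of 4.15, 3.50, 3.65 and 2.97. At the Rab12 gene end itself H1C had 24 and control 47, so the H1C-only region and a region of lower H1C pileup lay at the same locus.

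**Figure D5:**
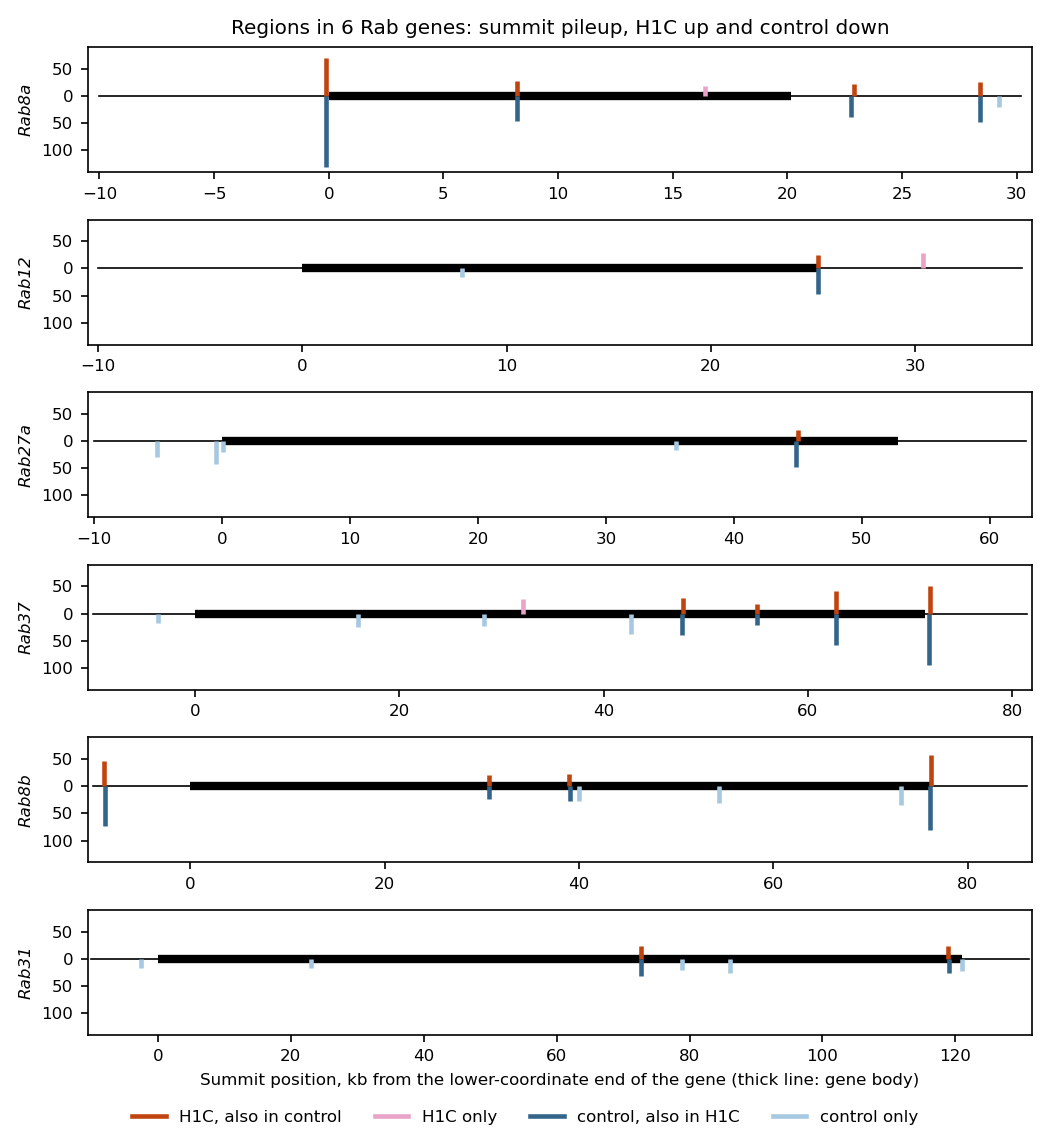
Summit positions (x axis, kb from the lower-coordinate gene end; thick line, gene body) and pileups (y axis, H1C upward, control downward) in Rab8a, Rab12, Rab27a, Rab37, Rab8b and Rab31, chosen after their values were seen. Dark lines overlap a region of the other list and pale lines do not; Rab12 shows an H1C-only region of pileup 29.

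In all, 5 genes had no region within 10 kb in either list: Rab3a, Rab9b, Rab27b, Rab38 and Rab39b. Another 12 without a gene-end region had some further control region, and Rab25, Rab34, Rab40b and Rab42 had one that was kept. Those by Rab25, Rab34 and Rab40b lay at the ends of other genes, which for Rab34 was Rpl23a. Such genes were not counted over all protein-coding genes, so these numbers have no share to be set against. Near the 10 kb bound, a control region 9152 bp from Rab3d (pileup 31) was just inside, and one 10029 bp from Rab34 (pileup 46) just outside.

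Regulators of Rabs also often had a control gene-end region. Of 114 genes, 88 (77.2%) had one, against 46.9% of all protein-coding genes. In H1C 65 of the 88 had one too (73.9%, 63.4 to 82.7), against 71.0% of all genes, and 0 had one in H1C only. Their median log2 ratio was -0.86 over 64 genes, against -0.85 in other genes. Genes of prenylation and membrane extraction, which attach Rabs to membranes and retrieve them, were kept at 6 of 6. Gdi2, which extracts GDP-bound Rabs, had 46 in H1C and 88 in control (-1.08, -1.63 to -0.55).

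Exchange factor genes were kept at 19 of 25, against 71.0% of all genes with a control gene-end region. Mon1b, a subunit of the Rab7 exchange factor, had 59 in H1C and 98 in control (log2 ratio -0.87). Its partner Ccz1 (control pileup 31) and Gapvd1, an exchange factor for Rab5 (33), were in control only. GAP genes were kept at 19 of 27, against the same 71.0%. Tbc1d10b had 73 in H1C and 133 in control (-1.01), and Tbc1d9b (50) and Sgsm2 (39) were in control only.

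Effector genes were kept at 21 of 30, against 71.0% of all genes with a control gene-end region. Bicd2, a dynein adaptor that binds Rab6, had 62 in H1C and 97 in control (log2 ratio -0.79, -1.27 to -0.31). Lrrk2, the kinase that phosphorylates Rab8a and Rab10 (control pileup 30), and Myo5b, the motor of Rab11 vesicles (28), were in control only. The median control −log10 p was 39.2 for Rab genes, 17.5 for effectors and 27.1 for protein-coding genes other than Rabs. Kept shares of the regulator lists were not weighted to bins of that value.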

How the data were processed

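The members, gene lists, markers, bins and alternatives were chosen with earlier results of these data known. Per the submitters' processing notes, the authors used MACS2, featureCounts and Picard besides Bowtie2 2.2.9 and Trim Galore 0.4.4, with mm10; roles, settings, duplicate removal and read shifting are not given in the sources used here. Duplicates or unshifted reads would alter pileups and summit positions. Regions were deposited by the authors per library, not pooled.

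Each deposited fold is a ratio of summit pileup plus 1 to local background plus 1 within a library. For each region the −log10 p, −log10 q and score as deposited come from the authors' peak caller, as does the deposited summit offset, another column. Pileup and background were solved from fold and −log10 p; the pileup was whole within a relative tolerance of 0.0001 for 13155 of 13156 H1C and 32005 of 32005 control regions. The solver was tested on simulated data. The lowest local background of a list served as its depth measure, since totals are unknown.

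Regions on chromosomes 1 to 19, X and Y were assigned to RefSeq genes (GRCm38.p6) by 1000 bp windows at either end and by gene body plus 10 kb; at least 1 bp of overlap counted as shared. Shares have exact Clopper-Pearson and ratios exact conditional binomial 95% intervals, for counting error only. Kept shares were compared with other genes in 10 equal-count bins of control −log10 p. Named were all genes in 1 list only, the 10 strongest, the 5 highest and 5 lowest ratios, paralog sets, the 10 strongest further regions and all further H1C-only ones; from each regulator list, the strongest kept and up to 2 control-only genes. Scripts ran in Python 3.11.15 with scipy 1.17.1 for intervals, pandas 2.3.3 and numpy 2.4.6 for tables and matplotlib 3.10.9 for figures.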

Additional observations from a re-analysis of the deposited data

How the results depend on the processing

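No paired analysis was possible because H1C and control had 1 library apiece. With 28 alternative settings over 6 results, 5 values moved out of the interval, the quartiles or 1.5 times the count, and 23 did not. The range for counts was wide, 28 to 63 for the 42 Rab genes with a control gene-end region. Only the median log2 ratio could change sign, and it did not. The kept share of other genes weighted to the Rab bins, whose interval is narrow, was 84.4% with 5 bins, 82.2% with bins of fold and 77.5% with 2500 bp windows, where 79.2% of Rab genes were kept. Further Rab regions were kept at 37.8% with 50 kb flanks, against 34.0% in other genes. The median log2 pileup ratio was -0.54 when scaled by local background at shared summits, against -0.51 in other genes. For these the cause was not tested. The kept share of Rab genes ran from 73.0% (fold of at least 5 in both lists, against 52.7% of all genes) to 85.7% (overlap required). With 500 bp windows 2 Rab genes changed class (Rab19 and Rab26), and with 2500 bp windows 8 did (Rab3b, Rab7b, Rab19, Rab21, Rab31, Rab34, Rab40b and Rab44).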
